A study of Mus musculus with 8 samples.

Results

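Chromosome 1 was described in 8 mouse embryonic stem (ES) cell cultures as 1206 genes, of 21144 genes in all, whose probe was well above background on all 8 arrays. Its members were the genes whose probe the array files place on chromosome 1 of mm9, with the brightest probe standing for each gene name. The set was chosen for the way its median moved between cultures, so these shifts are a description and carry no test. Of 2003 chromosome 1 gene names with a value, 797 were left out by the brightness rule, of which 281 were well above background in both cultures of some group and 516 in no group. The 70 genes above background on 7 arrays had a median log2 signal of -4.64, beside a lowest member at -5.05 and a median member at 0.13. The same rule kept 60.2% of gene names on chromosome 1 and 61.4% on the other 18 autosomes, whose 18876 genes are the background below.

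The cultures were wild type or heterozygous for R141C, a missense change in Nkx2-5, a homeobox factor of the early heart. They were sampled at day 0 as ES cells and at day 6 of differentiation toward cardiac progenitors through embryoid bodies, aggregates in which the germ layers form. Each of the 4 groups had 2 cultures, called replicates 1 and 2, which the series states are biological. The labels give no strain or passage and name no second line of either genotype. The arrays were on 1 slide with day 0 in one column and day 6 in the other, so day and slide column cannot be told apart. The 75th percentile of the processed signal ranged from 936 to 1848, and 55.8% to 70.5% of probes were above background. ES cell markers were above background in all groups (10 of 10), and so were, at day 0, 8 of 10 cardiac markers in wild type and 7 of 10 in R141C. The cardiac factors Tbx5 and Mef2c were not above background on any day 0 array.

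A chromosome carries genes of unrelated roles, so its median level moves little when single pathways are switched on or off. The level of a gene's RNA depends on transcription, RNA stability and the number of gene copies. Mouse ES cells are known for gaining whole chromosomes in long culture, but DNA was not measured here and copy number was not tested. Chromosome 1 of the mouse holds housekeeping genes such as the Mcm3 and Mcm6 helicase subunits and the Hspd1 and Hspe1 chaperonins, and also developmental genes such as Sox17, Tnnt2 and the Lefty genes.

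Of the 1206 genes, 838 matched the RefSeq table of GRCm38.p6, 796 of them as protein-coding. Another 187 were probes for long noncoding RNA intervals named by their coordinates. The table put 832 of the matched genes on chromosome 1. The other 6 (ATP6, ATP8, COX2, COX3, ND3 and ND4L) were mitochondrial genes whose probes the array files place in one short stretch of chromosome 1. Their signal cannot be assigned to chromosome 1, and the medians below barely moved without them.

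The promoters of 4 members are shown. Among the genes named from the role lists below, they had the lowest or the highest ratio of CG found over CG expected. The median shifts below were compared against this ratio. The choice among these genes, the brightest of each list, used the ratio alone. The lists themselves were chosen with earlier results of these data known. Each is the 250 bases before the start in the RefSeq promoter table (GRCm38.p6), on the strand of the gene, with CG dinucleotides in capitals. Hspe1, on the plus strand at chr1:55087898-55088147, and Rpl37a, on the plus strand at chr1:72711010-72711259, had the sign pattern described below in all 4 replicate pairs. Nr5a2, on the minus strand at chr1:136960449-136960698, also had it, while Sp110, on the minus strand at chr1:85603892-85604141, did not.
Hspe1: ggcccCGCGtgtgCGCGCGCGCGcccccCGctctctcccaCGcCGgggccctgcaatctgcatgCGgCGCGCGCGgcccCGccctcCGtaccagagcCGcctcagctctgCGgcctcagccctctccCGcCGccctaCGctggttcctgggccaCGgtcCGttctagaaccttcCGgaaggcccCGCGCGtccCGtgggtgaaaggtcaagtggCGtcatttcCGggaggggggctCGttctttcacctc
Rpl37a: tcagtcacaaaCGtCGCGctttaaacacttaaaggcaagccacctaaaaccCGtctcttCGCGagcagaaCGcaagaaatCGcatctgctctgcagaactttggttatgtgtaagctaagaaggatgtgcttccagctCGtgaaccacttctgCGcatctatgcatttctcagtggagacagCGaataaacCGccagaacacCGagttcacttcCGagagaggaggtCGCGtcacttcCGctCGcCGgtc
Nr5a2: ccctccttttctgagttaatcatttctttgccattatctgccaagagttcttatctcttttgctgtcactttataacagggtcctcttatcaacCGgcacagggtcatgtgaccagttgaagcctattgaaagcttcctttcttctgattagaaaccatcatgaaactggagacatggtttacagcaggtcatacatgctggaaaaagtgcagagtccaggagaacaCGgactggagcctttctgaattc
Sp110: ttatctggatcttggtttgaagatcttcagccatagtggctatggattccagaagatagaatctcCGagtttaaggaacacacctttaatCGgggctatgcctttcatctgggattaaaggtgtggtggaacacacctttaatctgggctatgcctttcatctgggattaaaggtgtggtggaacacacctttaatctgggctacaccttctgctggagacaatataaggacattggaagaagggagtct
The window held 32 CG in Hspe1, 19 in Rpl37a and 2 each in Nr5a2 and Sp110. The median was 15 for the 673 protein-coding members with a promoter, 15 for 10322 genes of the other autosomes and 6 over all 27025 promoters of the table. At least 1 CG was found in 98.8% of the members' promoters, in 98.0% of those of the other autosomes and in 91.7% of all in the table. CG was the only motif counted; it reads the same on both strands.

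At day 0, chromosome 1 genes were lower in wild-type replicate 1 than in wild-type replicate 2, with a relative shift of -0.26. This is on the log2 scale, and the shift on the other 18 autosomes ran from -0.12 (chromosome 9) to 0.24 (chromosome 8), with an SD of 0.087. In this pair, 839 of 1206 genes (69.6%) lay below the median of the other autosomes, where the background is 50% by construction. In R141C at day 0, chromosome 1 was shifted the other way, higher in replicate 1 by 0.22. Only chromosomes 8 (0.29) and 19 (0.28) were shifted further there, and 859 of the 1206 genes lay above the median of the other autosomes.

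At day 6 the signs were the same in each genotype. Wild-type replicate 1 was lower than replicate 2 by 0.11, with 802 genes below the background median, and among the other autosomes only chromosome 8 (0.14) had a larger shift. R141C replicate 1 was higher than replicate 2 by 0.14, with 759 genes above. Chromosomes 19 (0.34), 8 (0.29) and 11 (0.15) were shifted further in that pair. The 4 pairs share no array, but the set was chosen for these shifts, so the agreement of their signs carries no test.

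The labels do not say that cultures with the same number are related across days. Against the other 3 arrays of its day, chromosome 1 was shifted by -0.20 in wild-type day 0 replicate 1 and by 0.16 in its replicate 2. In R141C at day 0 the values were 0.19 for replicate 1 and -0.13 for replicate 2. At day 6 they were -0.19 and -0.04 for wild-type replicates 1 and 2, and 0.21 and 0.02 for R141C replicates 1 and 2. The 4 replicate 1 arrays were therefore the furthest from 0 at each day for their genotype, low in wild type and high in R141C. The highest arrays had 75th percentiles of 936 (R141C day 6 replicate 1), 1299 (R141C day 0 replicate 1) and 1848 (wild-type day 0 replicate 2), and the lowest had 1650 and 1359 (wild-type replicate 1 at days 0 and 6). The part of signal strength in the shift was not tested.

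**Figure D1:**
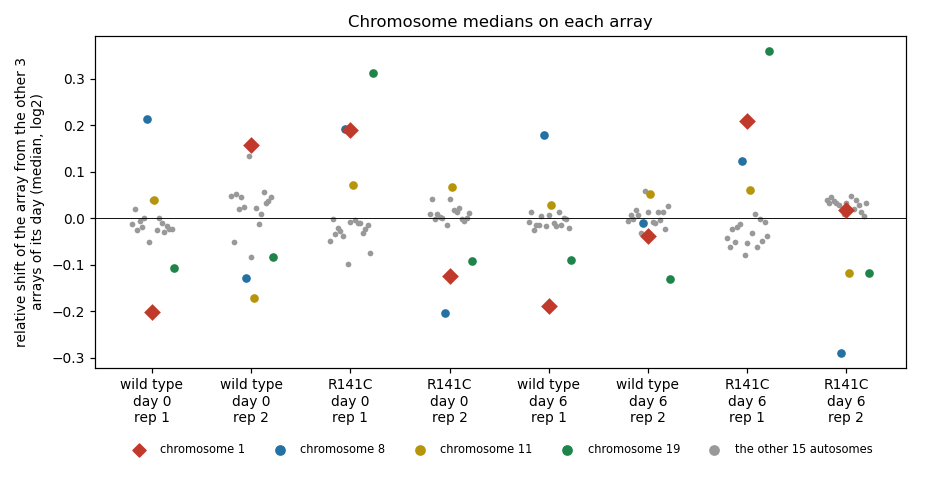
Median of each autosome on each array, relative to the genes of all autosomes but chromosome 1, as the log2 difference from the other 3 arrays of the same day. Chromosome 1 (red diamonds) lies at -0.20 and -0.19 in wild-type replicate 1 and at 0.19 and 0.21 in R141C replicate 1, outside the 15 autosomes in grey, while wild-type and R141C replicates 2 at day 6 lie near 0.

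At day 0, chromosome 1 therefore put the 4 arrays into 2 levels that crossed the genotypes. Among protein-coding genes, wild-type replicate 1 and R141C replicate 2 differed by -0.02, and wild-type replicate 2 and R141C replicate 1 by 0.01. The pairs across these levels differed by 0.34 to 0.42 on the log2 scale, the largest being 1.34-fold between the wild-type replicates. At day 6, R141C replicate 1 was above wild-type replicate 1 by 1.33-fold and above wild-type replicate 2 by 1.19-fold. R141C replicate 2 was above wild-type replicate 1 by 1.16-fold and differed from wild-type replicate 2 by 1.04-fold.

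The shift was spread along the chromosome. Of 19 bins of 10 Mb with at least 10 genes, all 19 had the sign of the chromosome in the wild-type day 0, R141C day 0 and wild-type day 6 pairs, and 18 had it in the R141C day 6 pair. The same signs were found in 52.1%, 35.9%, 60.7% and 32.9% of 234 bins of the other autosomes. The signs are those of the chromosome 1 medians that chose the set, so an excess over these shares is in part built in. The bin counts are a description and carry no test. The bin without it, from 20 to 30 Mb (-0.12 over 30 genes), is where the 6 mitochondrial probes lie. The part of these probes in the value of the bin was not tested. A bin from 110 to 120 Mb with 5 genes was left out of these counts, and its values were 0.18, -0.09, 0.18 and -0.01.

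In the wild-type day 0 pair the lowest bin ran from 30 to 40 Mb (-0.55 over 80 genes) and the highest from 40 to 50 Mb (-0.12 over 43 genes), side by side. The brightest genes of the lowest bin were Rpl31 of the large ribosomal subunit, the semaphorin Sema4c, Cox5b of respiratory complex IV and Mrpl30 of the mitochondrial ribosome. Their relative differences between the wild-type day 0 replicates were -0.19, 0.12, -0.74 and -0.62. In the highest bin these were -0.88 for Wdr75 (ribosomal RNA synthesis), -0.47 for the kinase Map4k4, -1.26 for Mrps9 of the mitochondrial ribosome and -0.85 for Tex30. Each of these 4 lay below the median of its own bin, so single genes did not follow the order of the bins.

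**Figure D2:**
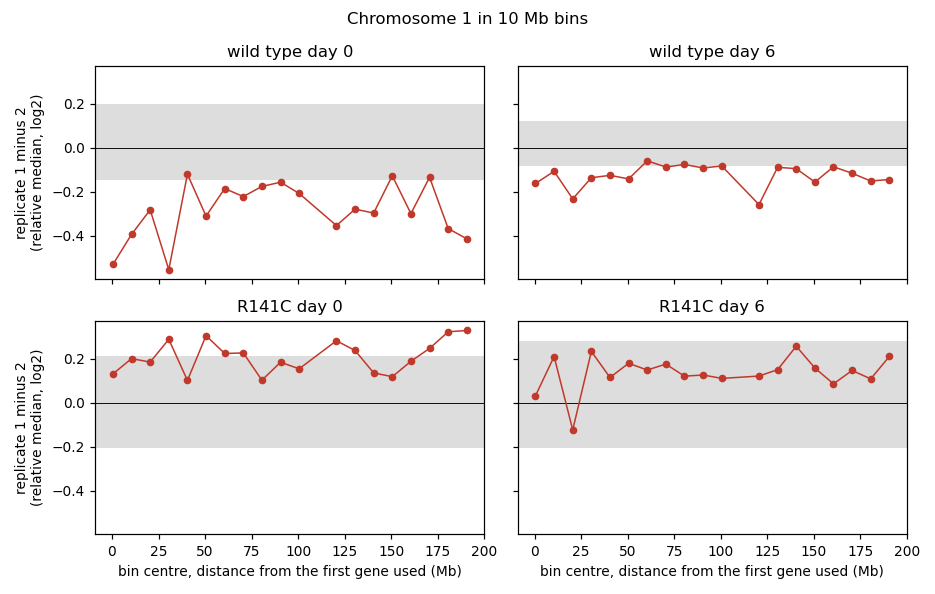
Relative replicate difference (replicate 1 minus replicate 2, median, log2) of chromosome 1 genes in 10 Mb bins with at least 10 genes, by distance along the chromosome, with the range from the 5th to the 95th percentile of 234 bins of the other autosomes in grey. The 19 bins all lie below 0 in both wild-type pairs, all above 0 in R141C at day 0, and 18 lie above 0 in R141C at day 6.

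Single genes followed the chromosome in part. Replicate 1 was lower in both wild-type pairs and higher in both R141C pairs for 317 of 1206 genes (26.3%), against 7.22% of the 18876 genes of the other autosomes. Chromosome 8 had this sign pattern in 3.34% of its genes and chromosome 19 in 13.1%. It was the commonest of the 16 possible sign patterns on chromosome 1. Its signs are those of the chromosome 1 medians that chose the set, so a share above that elsewhere is in part built in. Counts of this pattern, here and by class and role below, are a description and carry no test.

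The protein-coding genes carried the shift. Against protein-coding genes elsewhere, the 796 on chromosome 1 differed between replicates 1 and 2 by -0.42 for wild type and 0.35 for R141C at day 0, and by -0.17 and 0.20 at day 6. Chromosome 1 was outside the range of the 15 autosomes other than 8, 11 and 19 in all 4 pairs (-0.18 to 0.12, -0.09 to -0.01, -0.06 to 0.03 and -0.16 to -0.01). Chromosome 8 was shifted further in R141C at day 0 (0.44), in wild type at day 6 (0.18) and in R141C at day 6 (0.43), and chromosome 19 in both R141C pairs (0.40 and 0.45). The sign pattern was found in 245 of the 796 genes (30.8%), against 5.05% of 12965 protein-coding genes elsewhere. The 187 interval probes differed from interval probes elsewhere by only -0.04, 0.03, 0.00 and 0.00 in the same order. The 181 other names with no RefSeq match differed by -0.07, 0.02, -0.01 and -0.01. Their median log2 signal was 1.70, beside -0.60 for such names elsewhere. That of the protein-coding genes of chromosome 1 was 0.75 and that of its interval probes -2.57. The part of signal in these differences was not tested.

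Among protein-coding genes the sign pattern varied with signal, and the shift with promoter CpG content in 3 of the 4 pairs. The sign pattern was found in 29 of 212 genes (13.7%) with the lowest signals, 83 of 303 (27.4%) with middle signals and 133 of 281 (47.3%) with the highest. Elsewhere these shares were 4.74%, 3.54% and 6.78%. By promoter CpG ratio (CG found over CG expected from the C and G content), the wild-type day 0 difference was -0.12 in the low class (ratios up to 0.56), -0.48 in the middle class and -0.49 in the high class (ratios above 0.82), each against the same class elsewhere. The R141C differences were 0.24, 0.46 and 0.40 at day 0 and 0.11, 0.23 and 0.24 at day 6, while in wild type at day 6 they were nearly equal (-0.15, -0.17 and -0.17). The low class also had the lowest median log2 signal (-1.15, beside 1.63 and 1.58), so CpG content and signal were not separated here. Over all 1206 members, the 488 probes lowest in GC differed by -0.43 and the 211 highest in GC by -0.13 in wild type at day 0, and by -0.14 and -0.08 at day 6.

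**Figure D3:**
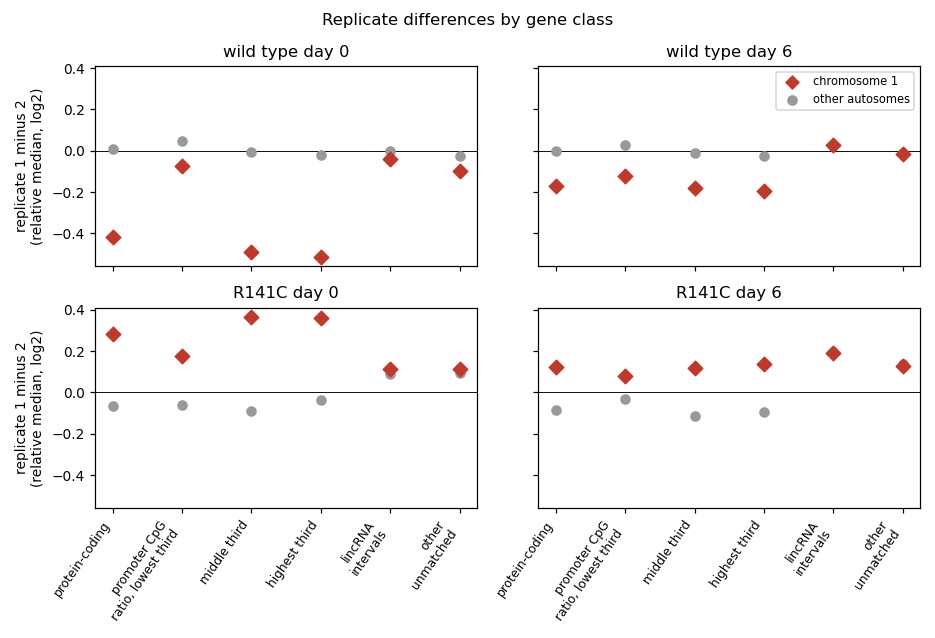
Median replicate difference (replicate 1 minus replicate 2, log2, relative to all genes of the other autosomes) for gene classes on chromosome 1 (red diamonds) and elsewhere (grey circles) in the 4 groups. Protein-coding genes of chromosome 1 lie apart from those elsewhere in every group, while interval probes and other unmatched names lie close to their counterparts.

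By role, the sign pattern was found in 13 of 15 mitochondrial and metabolic genes, 7 of 10 genes of the ribosome and translation, and 8 of 17 of the cell cycle and genome upkeep. All 5 mitochondrial ribosomal proteins of chromosome 1 (Mrpl15, Mrpl30, Mrpl44, Mrps14 and Mrps9) had it, beside 3 of 73 encoded elsewhere. Of the 7 respiratory chain genes by name, among them Cox5b and Sdhc, 5 had it, beside 10 of 71 elsewhere. Of the cytosolic ribosomal proteins 2 of 3 had it (Rpl31 and Rpl37a, not Rpl7), beside 16 of 71 (22.5%) elsewhere. The proteasome gene Psmd1 had it, beside 13.0% of 46 proteasome genes elsewhere. These families were picked by symbol after values were seen. Signal differed between the lists: 12 of the 15 mitochondrial, 10 of the 10 ribosomal and 8 of the 17 cell cycle genes were in the highest signal class, where 47.3% of protein-coding genes of chromosome 1 had the pattern. The part of signal in the list counts was not tested.

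The developmental lists rarely had the pattern. It was found in 1 of 9 pluripotency and early embryo genes, 1 of 17 developmental transcription factors and 1 of 16 ligands and receptors. None of 9 muscle and heart genes, 12 matrix genes, 10 interferon and immune genes or 6 blood and endothelial genes had it. The share was 26.3% over all 1206 genes. The median of the pluripotency list still had the sign of the chromosome in each pair (wild type -0.85 and -0.11, R141C 0.50 and 0.26, at days 0 and 6). These lists had median log2 signals from -2.37 (interferon and immune) to 1.76 (pluripotency). Those of the mitochondrial, ribosomal and cell cycle lists were 5.11, 6.66 and 1.87. The part of signal was not tested.

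**Figure D4:**
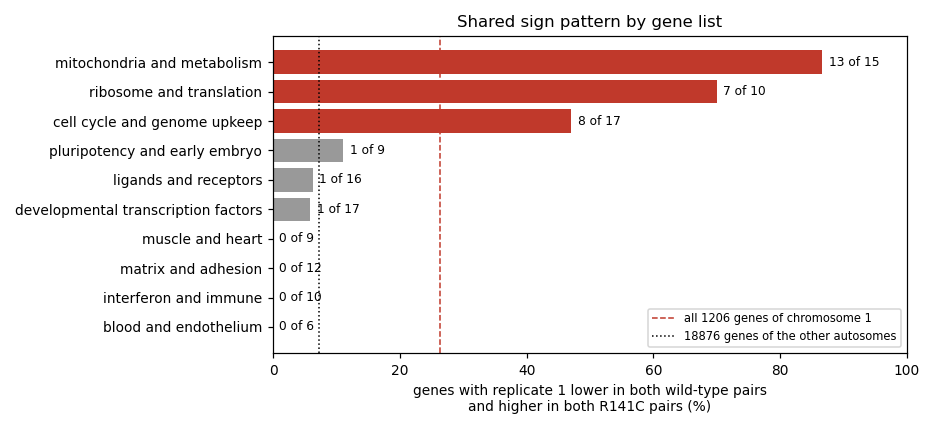
Percentage of genes in each list of chromosome 1 genes with replicate 1 lower in both wild-type pairs and higher in both R141C pairs, with the count beside each bar. The mitochondrial (13 of 15), ribosomal (7 of 10) and cell cycle (8 of 17) lists lie above the dashed line for all 1206 genes (26.3%), and the other lists lie below it.

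Mcm6 and Mcm3 encode subunits of the helicase that unwinds DNA at replication forks. Mcm6 (chromosome 1, 130228178 to 130228237) had log2 signals of 6.74 and 7.27 for wild-type replicates 1 and 2 at day 0, against 7.48 and 6.46 for R141C, and of 6.61 and 6.77, then 7.61 and 6.96, at day 6. Wild-type replicate 2 and R141C replicate 1 were the high cultures at day 0, and both R141C cultures were above both wild-type cultures at day 6. Mcm3 gave 6.54 and 7.11, then 7.12 and 6.07 at day 0, and 6.14 and 6.30, then 6.78 and 6.29 at day 6. Exo1, a DNA repair exonuclease, gave 4.83 and 4.96, then 5.46 and 4.42, and 3.96 and 4.02, then 4.64 and 4.05.

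Hspe1 and Hspd1 encode the partner subunits of the mitochondrial chaperonin and lie next to each other. Hspe1 (55148026 to 55148085) had log2 signals of 6.99 and 7.24 for wild type against 7.58 and 6.90 for R141C at day 0, and 6.63 and 6.75, then 7.55 and 6.98 at day 6. Hspd1 (55134697 to 55134756) gave 7.16 and 7.38, then 7.75 and 7.03, and 6.57 and 6.81, then 7.45 and 6.84. In both genes R141C replicate 1 was the highest array of each day. Cox5b gave 6.32 and 7.05, then 6.76 and 6.29, and 6.16 and 6.45, then 6.67 and 6.14, so the highest culture at day 0 was wild-type replicate 2.

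Rpl37a, Rpl31 and Rpl7 are proteins of the large ribosomal subunit. Rpl37a had log2 signals of 8.22 and 8.25, then 8.77 and 8.32 at day 0, and 8.25 and 8.41, then 8.99 and 8.65 at day 6. Rpl31 gave 7.72 and 7.91, then 8.23 and 7.70, and 7.88 and 8.02, then 8.66 and 8.03. In Rpl7 the wild-type replicates differed by less, with relative differences of -0.01 at day 0 and 0.01 at day 6, while R141C replicate 1 was higher by 0.21 and 0.34.

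The genes furthest apart between the wild-type day 0 replicates, 5 in each direction, had mixed roles. Inhbb, a subunit of activin, was lower in replicate 1 than in replicate 2 (0.30 and 4.05), as were Gbx2, a homeobox factor of the early embryo (1.54 and 3.70), and the inhibin subunit Inha (-4.57 and -2.18). Dock10, an activator of small GTPases (-5.63 and -2.40), and the noncoding RNA Platr5 (-1.63 and 0.95) were also lower. Higher in replicate 1 were the collagen Col5a2 (-1.85 and -5.13), the muscle calcium channel Cacna1s (0.63 and -2.56), Klhl30 (-0.23 and -2.70), the caveolar protein Cavin2 (-3.85 and -6.25) and the ligand Wnt10a (by 2.31 relative to the other autosomes). The sign pattern of the chromosome needs replicate 1 to be lower in this pair, so the 5 higher genes could not have it. Of the 5 lower genes, only Platr5 had it.

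**Figure D5:**
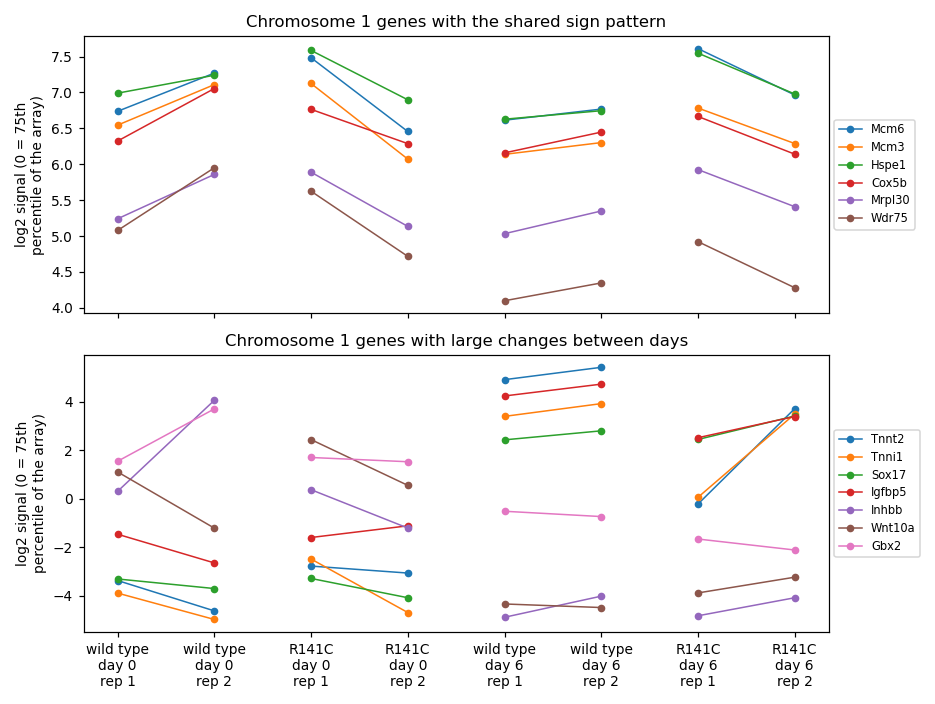
Log2 signal (0 is the 75th percentile of the array) of 13 chromosome 1 genes on the 8 arrays, with lines joining the 2 replicates of a group. In the upper panel Mcm6, Mcm3, Hspe1, Cox5b, Mrpl30 and Wdr75 are lower in replicate 1 than in replicate 2 in wild type and higher in R141C, while in the lower panel Tnnt2 goes from -3.37 and -4.62 to 4.90 and 5.41 in wild type.

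R141C was compared with wild type at day 6 to ask how the mutant cells differ after differentiation. The median chromosome 1 gene was higher in R141C by 0.21 on the log2 scale, against 0.05 on the other autosomes, a relative difference of 0.16. The other autosomes ran from -0.06 to 0.07, except chromosome 19 at 0.22. The difference was positive in 921 of 1206 genes (76.4%), against 56.5% elsewhere. In 494 genes (41.0%) both R141C cultures were above both wild-type cultures, against 26.8% of genes elsewhere. In 83 genes (6.88%) both were below, against 17.7%.

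No chromosome 1 gene was called at day 6 by limma (adjusted p under 0.05, background 0.0656% of all genes tested). The smallest adjusted p was 0.18, and 68 genes, 55 of them higher in R141C, had an unadjusted p under 0.05 (5.64%, against 6.7% on the other autosomes). Leaving out replicate 1 of R141C gave a relative median difference of 0.10, and leaving out that of wild type gave 0.11. Leaving out R141C replicate 2 gave 0.25, and Tnnt2 and Rassf5 were then called lower, with the lone R141C culture assumed to vary like the other groups. The summed level of 10 cardiac markers also differed, 7.85 and 8.15 in the wild-type cultures and 3.84 to 6.46 in R141C at day 6. At that day the summed level was higher in R141C for 10 ES cell markers (5.79 to 6.02, against 5.12 to 5.28). It was lower for 8 neural markers (2.90 to 3.23, against 4.28 to 4.38). For 8 endothelial markers the summed level, which the brightest genes weigh most, was higher in R141C (6.23 to 6.98, against 5.95 to 6.13). Their median overlapped between the genotypes (-0.02 to 0.57 in R141C, 0.16 to 0.37 in wild type). The summed levels of the blood, endoderm and fibroblast lists overlapped between the genotypes. The part of these markers in the chromosome values was not tested.

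The genes with the smallest p at day 6 were not of one kind. Dennd1b, an exchange factor for a Rab GTPase, gave -3.96 and -4.06 in wild type and -2.51 and -2.81 in R141C, a log2 difference of 1.35 with a standard error (SE) of 0.22 (limma adjusted p = 0.18). Hlx, a homeobox factor of gut and liver mesenchyme, gave -2.45 and -1.68 against -0.41 and -0.34 (1.69, SE 0.34, limma adjusted p = 0.27). The phosphatase Ptpn18 was 2.53-fold higher in R141C. Astn1, a neuronal adhesion protein, gave -2.45 and -2.77 against -3.91 and -4.05 (-1.37, SE 0.22, limma adjusted p = 0.18). The interleukin receptor Il1r1 and Igfbp5, which binds insulin-like growth factors, were 4.27-fold and 2.88-fold lower. In all 6 the groups did not overlap, which a choice by the smallest p favours, and in none did the difference pass.

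In the ES cells at day 0, the median chromosome 1 gene differed by 0.02 between genotypes, against 0.01 on the other autosomes. Each genotype held 1 culture at each chromosome 1 level. Leaving out wild-type replicate 1 or 2 gave relative differences of -0.11 or 0.15, and leaving out R141C replicate 1 or 2 gave -0.09 or 0.13. Both R141C cultures were above both wild-type cultures in 203 genes (16.8%, against 14.9% elsewhere) and below in 59 genes (4.89%, against 13.6%).

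By limma no chromosome 1 gene was called at day 0 (background 0.0%), with 61 genes at an unadjusted p under 0.05 (5.06%, against 3.64% elsewhere) and a smallest adjusted p of 0.385. Fam163a gave -5.44 and -5.53 in wild type and -3.07 and -2.80 in R141C, a difference of 2.55 (SE 0.36). Atf3, a stress response factor, gave 0.84 and 0.22 against 1.78 and 1.98. Mogat1, which makes diacylglycerol, was 3.55-fold higher. Lower in R141C were Mael, a germ cell factor (1.62 and 2.05 against 0.90 and 0.88), the actin nucleator Fmn2 (1.49-fold) and Gm2710 (1.91-fold). These 6 genes were picked for the smallest p, which favours groups that do not overlap, and in none did the groups overlap.

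In the genotype effect between the days, no chromosome 1 gene was called by limma (background 0.0%, smallest adjusted p 0.30). An unadjusted p under 0.05 was found for 36 genes (2.99%, against 4.32% elsewhere). The relative median of that difference was 0.15. Among the day 0 arrays, leaving out replicate 2 gave 0.01 (wild type) or 0.02 (R141C), and leaving out replicate 1 gave 0.23 or 0.24. Leaving out the replicate 1 arrays of day 6 gave 0.09 (wild type) or 0.08 (R141C), and leaving out R141C replicate 2 gave 0.21. The smallest p belonged to Dennd1b, Ptpn4 and Hlx, with positive values, and to Astn1, Prrx1 and Rab7b, with negative ones. Prrx1, a factor of limb and head mesenchyme, gave 0.26 and 0.44 in wild type and -1.31 and -1.20 in R141C at day 6.

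Wild-type cells at day 6 were compared with day 0 to follow differentiation. By limma, 227 of the 1206 genes were called (18.8%), 117 higher and 110 lower, against 23.9% of all genes tested and 22.4% of genes of the other autosomes above background on all 8 arrays. Among all genes tested 11% were higher and 12.9% lower. Leaving out wild-type replicate 1 or 2 of day 6 left 79 or 74 calls, and leaving out replicate 2 of day 0 left 151. The median difference was -0.15, against -0.05 elsewhere. Leaving out the low or the high wild-type culture of day 0 (replicates 1 and 2) moved the relative median from -0.09 to -0.22 or 0.02.

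Heart muscle genes rose furthest. Tnnt2, troponin T of heart muscle (chromosome 1, 137747976 to 137748288), rose from -3.37 and -4.62 to 4.90 and 5.41 on the log2 scale, 569-fold (difference 9.15, SE 1.15, limma adjusted p = 0.003). Its neighbour Tnni1, the slow troponin I of embryonic heart (137705328 to 137706203), rose from -3.89 and -4.97 to 3.39 and 3.92, 271-fold. Myl1, Des and Speg also rose, so that 5 of 9 muscle and heart genes were called, all higher. Csrp1 (from 6.66 and 5.87 to 6.52 and 7.12) and Atp1b1 (from 3.26 and 3.75 to 1.99 and 2.96), the brightest of the list, were not called.

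Other rises were of matrix, endoderm and signalling genes. Igfbp5 rose 92.4-fold, the collagen Col9a1 75.5-fold and Sox17, a factor of endoderm and of blood vessels, 69.2-fold, from -3.31 and -3.70 to 2.42 and 2.79. Among developmental transcription factors 6 of 17 were called, all higher (Sox17, Ikzf2, Pax3, Twist2, Prrx1 and Hlx). Of 12 matrix genes 4 rose, among them Fn1 (2.02-fold), and 2 fell, among them the laminin Lamc1. Of 16 ligands and receptors 7 rose, among them Tgfb2 (6.25-fold), Ihh and Cxcr4, and 4 fell. Of 6 blood and endothelial genes 3 rose (Cd34, Slc40a1 and Ackr1).

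Genes of the ES cell state fell. Of 9 pluripotency and early embryo genes 5 were called, all lower (Tfcp2l1, Nr5a2, Gbx2, Fzd5 and Lefty1). Nr5a2, a nuclear receptor of the ES cell network, fell from 3.54 and 4.03 to -0.05 and 0.10, 13.6-fold (limma adjusted p = 0.0016). The largest falls were of Inhbb (98.8-fold, from 0.30 and 4.05 to -4.88 and -4.01), the glutathione transferase Gsta3 (22.2-fold), Wnt10a (20.5-fold), Crocc2 (15.2-fold) and Platr5 (14.8-fold). In Inhbb, Platr5 and Wnt10a the day 0 replicates themselves differed by -3.75, -2.59 and 2.31 relative to the other autosomes (replicate 1 minus replicate 2). In Gbx2 this difference was -2.16, in Gsta3 -0.99 and in Crocc2 -0.54. Of 10 interferon and immune genes only Stat4 was called, lower.

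None of the 15 mitochondrial, 17 cell cycle or 10 ribosomal genes was called by limma. Their median differences were -0.38, -0.77 and -0.13 in wild type, beside -0.15 for all chromosome 1 genes. In R141C they were 0.02, -0.16 and -0.03.

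In R141C, day 6 against day 0 gave 145 called genes by limma (12% of 1206), 87 higher and 58 lower, against 15.6% of all genes tested and 14.3% of those elsewhere above background on all arrays. Among all genes tested 7.61% were higher and 8.02% lower. Leaving out R141C replicate 1 or 2 of day 0 left 60 or 82 calls, and those of day 6 left 89 or 83. Leaving out either wild-type array of day 6 left 80. The relative median of 0.01 became 0.16 or -0.10 when R141C replicate 1 or 2 of day 0 was left out, and -0.04 or 0.09 for those of day 6.

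Sox17 had the largest rise in R141C, from -3.29 and -4.08 to 2.44 and 3.40, 97.3-fold (limma adjusted p = 0.0007). The Nodal co-receptor Cfc1 rose 87.3-fold, from 0.24 and -1.63 to 5.31 and 6.20, and the adenosine receptor Adora1 46.8-fold. Tnni1 rose 41.0-fold, although its day 6 cultures were far apart (0.06 and 3.49). The ion channel gene Asic4 rose 36.6-fold. Tnnt2 reached -0.22 and 3.71 from -2.78 and -3.06 (25.3-fold, limma adjusted p = 0.039). R141C day 6 replicate 1, the lower culture for both troponins, was the higher one for the chromosome median.

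The falls in R141C were led by Wnt10a (33.1-fold, from 2.43 and 0.55 to -3.88 and -3.23), Mab21l4 (19.2-fold), Gbx2 (11.3-fold), Crocc2 (-3.40 on the log2 scale) and Gsta3 (10.1-fold). Of the lists, 2 of 9 muscle genes rose and 4 of 9 pluripotency genes fell. Of 17 developmental transcription factors 3 rose, of 12 matrix genes 2 rose and 1 fell, and of 16 ligands and receptors 6 rose and 3 fell. Of 6 blood and endothelial genes 3 rose, and of 10 interferon and immune genes 2 fell (Stat4 and Ikbke). Hlx rose 11.8-fold in R141C and 3.63-fold in wild type, but the difference between the genotypes was not called.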

How the data were processed

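Each of the 8 cultures was hybridized to 1 single-colour Agilent array (design 028005, probes on mm9, per the file headers). The files were made with Feature Extraction 11.5.1.1 per the file headers, while the submitters' processing notes give Agilent Feature Extraction 10.5.1.1. The deposited processed signal is a linear intensity, with the background removed per array and no step between arrays. The deposited mean and background signals are uncorrected intensities, the deposited flags (other) are 0 or 1, and the deposited series matrix holds log2 values. Its filter and normalization are not given in the sources used here. Its column medians were 8.99 to 9.04.

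Outlier spots (131 to 251 per array) and 98 probes that this left without a value were dropped, spots of 1 probe were averaged, and the 75th percentile of each array was subtracted from its log2 signals. The number of arrays limits the precision. A relative shift is the median over chromosome 1 genes minus the median over genes of the other 18 autosomes. It chose the genes described and is given without a test. Group comparisons used limma 3.58.1 in R 4.3.3 (data.table, version 1.17.8) on the 8 arrays, with a mean per group, 4 residual degrees of freedom (2.70 prior), two-sided tests and Benjamini-Hochberg adjustment over 25917 genes well above background in both cultures of some group. Calls are adjusted p-values under 0.05. P-values set a group difference against the spread between cultures of the same group, and do not cover the spread between independent lines.

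Members and gene lists were chosen with earlier results of these data known. Named were, per group comparison, the 5 largest called rises and falls or, with none called, the 3 smallest p each way. Also named were the 5 genes furthest apart each way in the wild-type day 0 pair, the 4 brightest genes of the extreme bins, and the 3 brightest of each list. Other genes named were chosen after their values were seen. Alternatives tried were normexp (offset 50), quantile or median scaling, the series matrix, other filters, summaries and bin widths, trend and robust eBayes, a block for the replicate number, and single arrays left out. Scripts were tested on simulated data. Figures used Python 3.11.15 (numpy 2.4.6, pandas 2.3.3) and matplotlib 3.10.9.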

Additional observations from a re-analysis of the deposited data

How the results depend on the processing

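Under quantile normalization, normexp, the series matrix, means over genes, the wider filter and the mean of all bright probes, all 4 replicate shifts and all 8 shifts from the day kept their sign and moved by less than the SD of the other autosomes. With only genes in the upper part of the signal range, the wild-type day 0 shift was -0.39 and wild-type day 0 replicate 2 was at 0.25 from its day. With protein-coding genes only, an alternative chosen after the data were seen, the replicate shifts were -0.42 (wild type) and 0.35 (R141C) at day 0 and -0.17 in wild type at day 6. The shifts from the day were then -0.30, 0.25 and -0.21 for wild-type replicates 1 and 2 and R141C replicate 2 at day 0, and -0.26 for wild-type replicate 1 at day 6. The bins kept 90.9% to 100% with the sign of the chromosome at 5 Mb and 100% at 20 Mb.

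With 1 other array of the day left out, the shift ranged from -0.28 to -0.14 and from 0.11 to 0.23 for wild-type day 0 replicates 1 and 2, from 0.13 to 0.25 and from -0.18 to -0.09 for R141C, from -0.24 to -0.12 and from -0.11 to 0.042 for wild-type day 6, and from 0.17 to 0.25 and from -0.04 to 0.10 for R141C day 6. Only both replicates 2 at day 6 changed sign. Leaving out an array of a replicate pair gives no shift.

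With 1 array left out, the count of called genes ranged from 74 to 223 in wild type and from 60 to 167 in R141C between days, was 0 to 2 for the genotypes at day 6, and 0 for the other comparisons. The relative medians ranged from 0.10 to 0.25 and from -0.11 to 0.15 for the genotypes at days 6 and 0, from -0.22 to 0.024 and from -0.10 to 0.16 between days in wild type and R141C, and from 0.012 to 0.24 for their difference. With the median of each chromosome removed, which takes the shift away by construction, they were 0.012, -0.002 and -0.038 for the genotypes at day 6, the days in wild type and the days in R141C, and 0.011 for the difference. Other alternatives kept each count within 1.5 times. With no filter on dim probes, R141C had 99 calls between days.

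The labels do not pair the replicate numbers, and the main group comparisons did not use them as pairs. The sign pattern, however, takes the replicates by number. Across 20082 autosomal genes, which are not independent, the replicate differences of 2 groups correlated with r from -0.16 to 0.43. Between the days of 1 genotype r was 0.0005 in wild type and 0.43 in R141C over these genes. Over the 1206 chromosome 1 genes it was 0.03 and 0.35, and over the 19 chromosome medians 0.78 and 0.92. The medians include chromosome 1, whose shifts chose the set, so the last 2 values are in part built in. Whether cultures of the same number are related across days was not tested. With a replicate block 222 genes were called between days in wild type and 140 in R141C, and none between genotypes. With the numbers crossed at day 0 the counts were 193 and 116, and with a block within each genotype 266 and 146. Of 57 calls of named genes between days, 31 held under all 19 alternatives run and none reversed.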

Other observations

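Several chromosome 1 genes of the heart and vessel lineages were not above background on all 8 arrays and so are not among the 1206. Rgs5, a marker of cells around vessels, was above background on no wild-type and 1 R141C array at day 0 and on all 4 arrays at day 6, with log2 signals of 0.87 and 1.19 in wild type and -1.14 and 1.42 in R141C. Prox1, a factor of liver, heart and lymphatic vessels, was above background on the 4 arrays at day 6 only, at -3.94, -3.78, -4.02 and -3.19. Esrrg, a nuclear receptor of energy-demanding tissue, gave -1.40 and -1.44 in wild type at day 6 and -5.32 and -2.85 in R141C, where 1 array was above background. The receptor Erbb4 gave -2.99 and -2.46 in wild type and -6.35 and -3.26 in R141C at day 6, again with 1 R141C array above background. In both genes R141C replicate 1 was the array not above background.

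The 6 mitochondrial genes whose probes the files place on chromosome 1 did not move together. Between the R141C day 6 replicates, the relative difference was -1.03 for ATP6, -0.68 for ATP8, -1.13 for ND3 and -0.32 for COX3, but 0.17 for COX2 and 0.19 for ND4L. These genes are transcribed from the mitochondrial genome.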
